A study of Mus musculus with 12 samples.

Results

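To compare the effect of the 2 mimics with each other, RNA-Seq profiles of 3 tumours treated with miR-183-5p-loaded extracellular vesicles (EVs) were set against those of 3 tumours treated with miR-222-3p-loaded EVs. These 6 of the 12 tumours in the series were chosen by their labels, and no measured value was used to choose them. All 12 mice were female BALB/c animals aged 6 to 8 weeks that received 100000 4T1 cells under the skin of the right flank. 4T1 is a mouse mammary carcinoma line that forms tumours in BALB/c mice, whose immune system is intact. EV injection beside the tumour began 5 days later, at 3 µg per injection every 2 days, and tumours were taken on day 21. The EVs came from MS-1, a mouse endothelial line, and were electroporated with 1 mimic per group, that of miR-183-5p in one compared group and that of miR-222-3p in the other. The 2 groups not compared here received miR-142-5p or the nematode miRNA cel-miR-67 (ctrl). The model thus rests on 1 carcinoma line and 1 EV source, every animal received EVs, and 1 polyadenylated RNA library was made per tumour, so p-values measure the spread between these tumours.

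The tissue label matched the defining epithelial markers. The keratin gene Krt8 lay between 481 and 537 TPM (a level per unit of transcript length, scaled to the same sum in each library) in the 6 tumours, Krt18 between 715 and 885 TPM, and the adhesion genes Epcam and Cdh1 between 75.4 and 125 TPM and between 45.0 and 64.1 TPM. The libraries held 27021401, 24793431 and 23833871 estimated reads in miR-183-5p tumours 1 to 3, and 24265597, 23137998 and 26969322 in miR-222-3p tumours 1 to 3. Tumour 3 of the miR-183-5p group stood apart in 2 ways. It carried skeletal muscle transcripts, with the muscle actin Acta1 at 79.9 TPM against at most 0.965 TPM in the other 5 tumours. It also belonged to a set of libraries in which the pseudogene Gm28661, identical to mitochondrial mt-Co2, took under 1% of the reads of both genes. This set held miR-183-5p tumour 3 (0.0169%) and all 3 miR-222-3p tumours (0.000621% to 0.324%), whereas miR-183-5p tumours 1 and 2 were at 18.1% and 17.1%. The set and the treatment therefore cannot be told apart for miR-183-5p tumours 1 and 2, and each result is given with all 3 tumours, without tumour 3, and for tumour 3 alone where this matters. For tumour 3 alone the test assumes that a single tumour varies like those of the other groups.

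miRNAs guide Argonaute proteins to messenger RNAs, chiefly by pairing between the miRNA seed and the 3′ UTR, and the paired transcripts are translated less and degraded. miR-183-5p belongs to a cluster known from sensory organs and is raised in many carcinomas, and miR-222-3p is best known for acting on the cell cycle inhibitor Cdkn1b and the receptor Kit. The mature sequences are shown because the 2 mimics differ in the seed, bases 2 to 8, given in capitals. They are RefSeq sequences on GRCm38.p6, at chr6:30169711-30169732 on the minus strand and at chrX:19146901-19146923 on the minus strand.
miR-183-5p: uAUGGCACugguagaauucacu
miR-222-3p: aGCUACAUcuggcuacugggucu
The letters that pair with these seeds in a transcript are GTGCCAT for miR-183-5p and ATGTAGC for miR-222-3p, so no site serves both.

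Few genes separated the groups. Of 15459 genes kept, 15413 received an adjusted p-value, and 5 of them (0.0324%) passed the threshold (Wald test of DESeq2 with Benjamini-Hochberg adjustment, p under 0.05). All 5 were pseudogenes and all 5 were higher in miR-183-5p tumours. At an unadjusted p under 0.05 there were 499 genes (3.24%), 245 higher (1.59%) and 254 lower (1.65%) in miR-183-5p tumours. In 1400 genes (9.06%) the groups did not overlap, with each miR-183-5p tumour above each miR-222-3p tumour in 710 (4.59%) and below in 690 (4.46%). Without any group difference, a share of 0.1 would show no overlap with 3 against 3 tumours, and a share of 0.05 an unadjusted p under 0.05. Both observed shares lay below these. List members without overlap are read against the 4.59% and 4.46%. The median log2 fold change over all genes was -0.00359. The number of genes called depended on single tumours, in both groups. Leaving out miR-183-5p tumour 1, 2 or 3 gave 3 (0.0207%), 7 (0.0454%) and 14 (0.0908%) genes, and leaving out miR-222-3p tumour 1, 2 or 3 gave 1 (0.00649%), 2 (0.013%) and 15 (0.106%). With miR-183-5p tumour 3 alone against the miR-222-3p tumours it was 32 (0.207%), 23 higher (0.149%) and 9 lower (0.0583%), of which 0 were among the 5. A fit of only the 6 tumours, which takes the spread from them alone, called 18 (0.117%). The share of all genes higher at an unadjusted p under 0.05, against which list counts are read, was 1.36%, 1.69% and 1.01% without miR-183-5p tumours 1, 2 and 3, and 1.43%, 1.38% and 3.08% without miR-222-3p tumours 1, 2 and 3. The share lower was 1.71%, 1.4%, 1.41%, 1.05%, 1.29% and 2.78% in the same order.

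The pseudogenes that passed the test are near or full copies of expressed genes. Gm10925, at chr1:24613974-24614651, matches the mitochondrial ATP synthase gene mt-Atp6 over 678 bases without a mismatch. Its normalised read count (reads corrected for library size and length) was 9379, 7530.1 and 0 in miR-183-5p tumours 1 to 3, against 41.0, 34.2 and 5.23 in miR-222-3p tumours 1 to 3 (log2 fold change 7.72, SE 1.69, adjusted p = 0.0194). The third miR-183-5p tumour thus lay below the miR-222-3p tumours, and tumours 1 and 2 far above them. Gm28437, at chr1:24613189-24613971 and identical over 783 bases to the cytochrome oxidase gene mt-Co3, had 303, 471 and 0 against 0.931, 1.01 and 0 (adjusted p = 0.00861). It received 846 reads in the first group and 2 in the second, a ratio of 416 with an exact 95% interval of 115 to 3439 that covers counting error only. Gm28661, which defines the library sets, followed the same tumours without passing the test, at 16230, 16855 and 13.4 and 288, 289.6 and 0.872 (adjusted p = 0.361).

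The 3 other pseudogenes copy nuclear genes. Gm5537, at chr3:58102996-58104247, is identical over 1252 bases to the glycolytic gene Pgk1. It had 617, 0 and 0 normalised reads in the miR-183-5p group and no reads in the other (adjusted p = 0.000219), so its call came from tumour 1. With a floor of 3 reads per library the group mean was at least 68.6-fold higher. Gm9843, at chr16:76403251-76403652 and identical over 402 bases to the ribosomal protein gene Fau, had 547, 700.3 and 0 and no reads in the miR-222-3p tumours (at least 139-fold higher, adjusted p = 0.0108). Gm7666, at chr15:6653923-6654741, matches the prohibitin gene Phb at 99.878% of 819 bases and had 21.5, 7.63 and 5.12 against no reads (at least 3.81-fold higher, adjusted p = 0.0266). It was the only one of the 5 with reads in each miR-183-5p tumour. Reads that fit a pseudogene and its copy can be split between them by the estimation, so each pair was also summed. The summed log2 fold change was -0.08 for Gm10925 with mt-Atp6, -0.01 for Gm28437 with mt-Co3, 0.33 for Gm5537 with Pgk1, -0.05 for Gm9843 with Fau and 0.11 for Gm7666 with Phb. With the pairs summed 0 genes passed the test, and 493 had an unadjusted p under 0.05 (DESeq2).

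Genes of the erythroid lineage held 3 of the 4 smallest p-values among genes that are not pseudogenes. The haemoglobin chains carry oxygen in red cells and Alas2 begins haem synthesis in their precursors. Of 12 listed genes 7 were tested, 0 passed the adjusted threshold, and 5 had an unadjusted p under 0.05, all higher in miR-183-5p tumours. In 6 of the 7 the miR-183-5p tumours all lay above the miR-222-3p tumours, beside 4.59% of all genes. The median log2 fold change was 1.25. The adult beta chain Hbb-bt had 106, 89.6 and 119 normalised reads in the miR-183-5p group against 40.0, 31.2 and 39.2 in the miR-222-3p group. The lowest miR-183-5p tumour was above the highest miR-222-3p tumour, with a log2 fold change of 1.51 (SE 0.36, adjusted p = 0.0711), the smallest of any gene outside the 5. The other beta chain, Hbb-bs, had 1978, 1852 and 3405 and 1035, 600.4 and 1109 (1.40, SE 0.36, adjusted p = 0.153). The alpha chains gave 769.8, 723 and 1076 against 401, 239 and 442 for Hba-a2 (1.25, SE 0.31, adjusted p = 0.153).

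Hba-a1, whose coding sequence nearly matches that of Hba-a2 so that reads may be shared between them, had 608, 421 and 716 and 275, 164 and 336 (1.17, SE 0.35). Alas2 had 47.6, 26.8 and 54.4 against 23.1, 16.98 and 11.5 (1.35, SE 0.41, adjusted p = 0.564). All of these genes were highest in miR-183-5p tumour 3 and still separated the groups without it, at a list median of 1.05. The membrane protein gene Epb42 had a log2 fold change of 0.52 (SE 0.34) and the transferrin receptor gene Tfrc, which dividing cells of any type use, one of 0.02 (SE 0.16). Against the ctrl tumours the list median was 0.43 in the miR-183-5p group and -0.73 in the miR-222-3p group. These 2 comparisons share the ctrl tumours. In a fit of only the 6 tumours Hbb-bs, Hba-a2, Hbb-bt and Hba-a1 passed the threshold, at adjusted p-values of 0.00102, 0.00209, 0.00491 and 0.0311 (DESeq2). Over all alternatives that of Hbb-bt lay between 0.00491 and 0.99963. In bulk tumours, fewer cells of a type and less RNA per cell cannot be told apart.

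**Figure D1:**
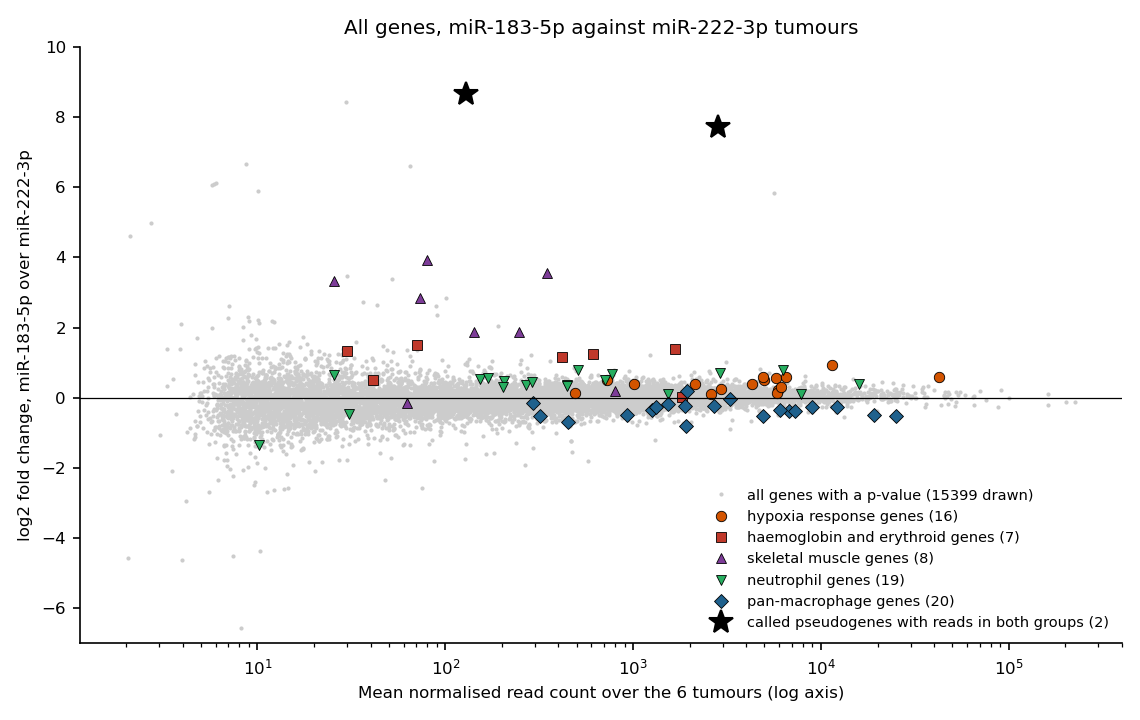
Log2 fold change of miR-183-5p over miR-222-3p tumours (vertical axis) against the mean normalised read count over the 6 tumours (horizontal axis, logarithmic), with 1 point per gene for 15399 genes. Stars mark the 2 called pseudogenes with reads in both groups, and coloured symbols mark 5 gene lists. Of the 3 other called pseudogenes, Gm5537 and Gm9843 lie above the end of the vertical axis and Gm7666 is an unmarked grey point. Erythroid and hypoxia response genes lie at or above 0 and all but 1 of the 20 pan-macrophage genes below it.

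Hypoxia response genes lay on 1 side as well. They are transcribed when the factor Hif1a is stabilised at low oxygen, and among them are an angiogenic ligand, glucose uptake, collagen hydroxylases and the oxygen sensors that end the response. All 16 listed genes were tested and all 16 had a positive log2 fold change, beside 49.2% of all genes. None of the 16 passed the adjusted threshold, 9 had an unadjusted p under 0.05, and in 11 the groups did not overlap. The shares of all genes higher by these last 2 measures were 1.59% and 4.59%. The median log2 fold change was 0.40. Ero1l, an oxidase that forms disulfide bonds in the endoplasmic reticulum, had 13826, 12760 and 18745 normalised reads in the miR-183-5p group against 6605, 7321 and 9621 in the miR-222-3p group. Its groups did not overlap, and the log2 fold change was 0.94 (SE 0.27, adjusted p = 0.361). In the fit of only the 6 tumours it passed, at an adjusted p of 0.00211, and over all alternatives its adjusted p lay between 0.00211 and 0.99987.

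Vegfa, the ligand that drives vessel growth, had 6286, 5296 and 6025 against 3222, 4072 and 4414 (0.59, SE 0.25). The glucose transporter gene Slc2a1 had 8038, 7877 and 7504 against 4544, 4473 and 6554 (0.59, SE 0.25). In both genes the 3 miR-183-5p tumours lay close together above the miR-222-3p tumours, of which tumour 3 came nearest. Bnip3, which marks mitochondria for removal, had 7347, 6491 and 6786 against 4910.1, 3769 and 5188 (0.57, SE 0.21). The surface carbonic anhydrase Car9 had 5992, 4849.5 and 6634 against 4044, 3492 and 4650.3 (0.52, SE 0.19). Ndrg1, a stress-induced gene, had 44353, 49069 and 60912 against 34903, 25948 and 41005 (0.60, SE 0.25). None of these 3 overlapped between the groups, and their adjusted p was 0.99965 as for most genes. The remaining members with an unadjusted p under 0.05 were the oxygen sensor Egln1 (0.40) and the collagen hydroxylases P4ha2 (0.39) and P4ha1 (0.32). Hif1a itself, whose product is controlled mainly as protein, had 6698, 5930 and 6353 against 5848, 5545 and 4913 (0.22, SE 0.16).

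The count of 9 rested in part on single tumours. It was 5 without miR-183-5p tumour 1, 4 without miR-183-5p tumour 3, 4 without miR-222-3p tumour 2 and 7, 8 and 10 in the other 3 cases, while the median stayed between 0.32 and 0.58. The median was 0.40 without miR-183-5p tumour 3 and 0.39 for that tumour alone, so the direction was the same within the library set. Set against ctrl, which both comparisons share, the list median was 0.25 in the miR-183-5p group and -0.20 in the miR-222-3p group. Bnip3l, a mitophagy gene related to Bnip3 that also clears mitochondria from maturing red cells, is not on the list. It had 7239.7, 7583 and 7927 against 5813, 5749 and 5423 (log2 fold change 0.42, SE 0.12, adjusted p = 0.417). Bnip3l was named for its small p and non-overlapping groups, so its small spread next to the gap follows from that choice.

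Promoter letters are shown for 4 of these genes because hypoxia response elements share the core ACGTG. The windows are RefSeq sequence on GRCm38.p6, 5′ to 3′ along the gene, taken from 250 bases before to 50 bases after a transcription start, with the core or its reverse complement CACGT in capitals. Where RefSeq gives several starts for a gene, the one nearest to the 5′ end of the gene in the annotation of the files was used. In Bnip3 the cores on the opposite strands overlap.
Bnip3, chr7:138909597-138909625, minus strand: cgcacgcgccgcACGTGccacacgctccc
Car9, chr4:43506996-43507024, plus strand: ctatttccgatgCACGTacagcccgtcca
P4ha1, chr10:59323268-59323296, plus strand: tgtgacagagcgCACGTagcgagggctgc
Slc2a1, chr4:119108697-119108725, plus strand: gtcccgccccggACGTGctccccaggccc
ACGTG was found on either strand in 9 of the 13 listed hypoxia genes with a promoter sequence (69.2%), and in 2783 of 11435 tested genes (24.3%). When GCGTG was also allowed, the counts were 12 of 13 (92.3%) and 6838 (59.8%). A match is a description of the letters and not a measured binding site. The list was made of hypoxia response genes, so these shares say nothing about the 6 tumours. In Hif1a and Ankrd37, both among the 9, the start used lay 6492 and 5857 bases from the annotated 5′ end.

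Glycolysis genes, several of which respond to hypoxia too, followed the same order. All 16 had a positive log2 fold change (median 0.27), 4 had an unadjusted p under 0.05, none passed the adjusted threshold, and in 8 the groups did not overlap. Of all genes 4.59% were higher without overlap. Hexokinase Hk1, which traps glucose in the cell, had 5226, 5047 and 5299 against 4109.5, 3873 and 4706 (0.30, SE 0.12). Triose phosphate isomerase Tpi1 had 20472, 20117 and 23428 against 14656, 15339 and 19220 (0.38, SE 0.17). The other members under 0.05 were Slc2a1, which both lists hold, and the phosphofructokinase gene Pfkl (0.33). The count of 4 ranged from 0 without miR-222-3p tumour 2 to 10 without miR-222-3p tumour 3, and was 2 without miR-183-5p tumour 1 and 1 without miR-222-3p tumour 1. The median stayed between 0.23 and 0.40.

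**Figure D2:**
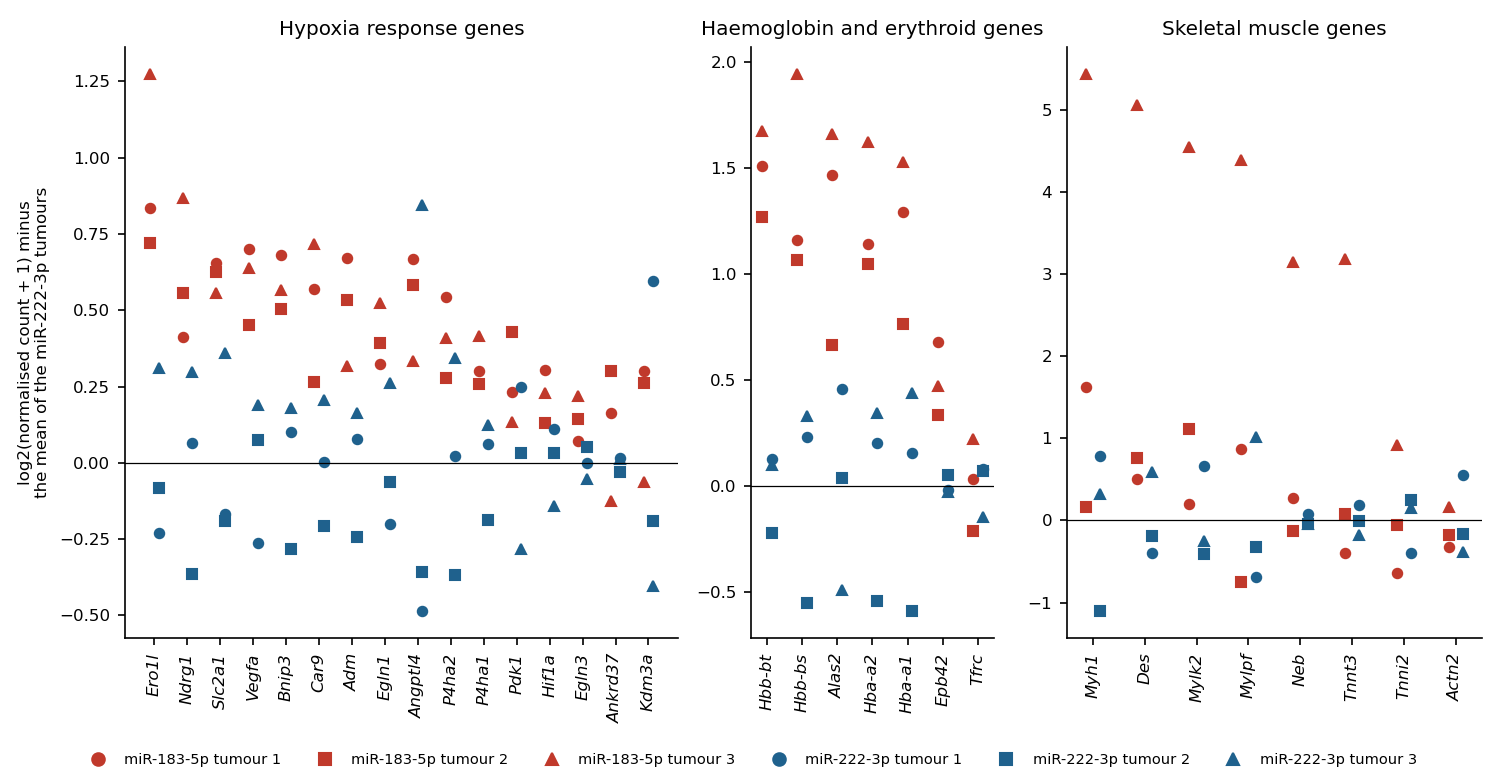
Difference of log2(normalised count + 1) from the mean of the 3 miR-222-3p tumours (vertical axis, a separate scale in each panel) for the tested genes of 3 lists (horizontal axis), with 1 symbol per tumour in red for miR-183-5p and blue for miR-222-3p. In the hypoxia and erythroid panels the 3 red symbols stand together above the blue for most genes, and in the muscle panel miR-183-5p tumour 3 stands alone at up to over 5 on this scale.

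Other protein-coding genes with non-overlapping groups and at least 100 normalised reads on average are named in the order of their p-values. Ifitm6, of the interferon-induced membrane protein family, had 316, 294 and 342 against 168, 161 and 243 (0.73, SE 0.19, adjusted p = 0.219). Agbl5, a carboxypeptidase that trims glutamates from tubulin, had 987, 953 and 1033 against 752, 760.4 and 793 (0.37, SE 0.10, adjusted p = 0.252). A small spread within groups follows from the way these genes were chosen, and in Agbl5 the difference was small as well. Fhl1, a LIM protein abundant in muscle, had 143, 113 and 668 against 65.2, 51.0 and 106. Its log2 fold change of 2.06 (SE 0.59) was 0.79 without tumour 3, the tumour with muscle transcripts. The mitotic kinase Nek6 had 0.46 (SE 0.13), Fam220a 0.53 (SE 0.16) and Espn, an actin-bundling protein, 0.85 (SE 0.26). Espn passed the threshold in the fit of only the 6 tumours (adjusted p = 0.0367, range over all alternatives 0.0367 to 0.99994).

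Among the genes of this kind that were lower in miR-183-5p tumours, Atr, the kinase that senses stalled replication forks, had the smallest p. It had 765, 623 and 617 against 1058, 997 and 833 (-0.53, SE 0.14, adjusted p = 0.298). Ptpru, a receptor tyrosine phosphatase, had 137, 84.8 and 50.4 against 333, 226 and 257 (-1.58, SE 0.52). It passed in the fit of only the 6 tumours at an adjusted p of 0.00563, within a range over all alternatives of 0.00562 to 1. Spry1, an inhibitor of receptor tyrosine kinase signalling, had 2773, 2758 and 2356 against 4555, 4529.9 and 3146 (-0.63, SE 0.23). Nfatc2, a calcium-dependent transcription factor of lymphocytes and other cells, had 438, 469 and 388 against 722, 725 and 472 (-0.57, SE 0.19). In both, miR-222-3p tumour 3 lay nearest to the miR-183-5p tumours.

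Slc7a11, the cystine importer that feeds glutathione synthesis, had 924, 541 and 859 against 1318, 1482 and 1165 (-0.77, SE 0.29). Peli2, a ubiquitin ligase of toll-like receptor signalling, had 153, 113 and 88.2 against 197, 208 and 162 (-0.67, SE 0.22). The 6 remaining genes of this rank were Col20a1 (-0.79), 1500011B03Rik (-0.66), Fastkd2 (-0.41), Tmem273 (-0.70), Ttll3 (-0.54) and Usp2 (-0.59), all with non-overlapping groups and adjusted p-values from 0.361 upward. The value of Usp2 was 0.0465 without the length offset.

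Myeloid genes were examined because the study asked how the EVs act on tumour macrophages. Of 20 pan-macrophage genes 19 had a negative log2 fold change (median -0.35), 3 had an unadjusted p under 0.05 and none passed the adjusted threshold. Cx3cr1, the fractalkine receptor of monocytes and tissue macrophages, had 1575, 1489 and 1075 against 3076, 2801 and 1385 (-0.81, SE 0.28, adjusted p = 0.9). The receptor for macrophage growth factor, Csf1r, had 4557, 4222 and 3327 against 7383, 5746 and 4192 (-0.52, SE 0.22). The tetraspan gene Ms4a7 had 393, 295 and 338 against 679.9, 493 and 489.7 (-0.70, SE 0.33). Only Ms4a7 did not overlap, since miR-222-3p tumour 3 lay among the miR-183-5p tumours for the other 2. The count of 3 was 5 without miR-183-5p tumour 1, 1 without miR-183-5p tumour 3, 1 without miR-222-3p tumour 1 and 7 without miR-222-3p tumour 3, when Cx3cr1 passed the adjusted threshold (adjusted p = 0.00786, range over all alternatives 0.00786 to 1). The median was -0.21 without miR-183-5p tumour 3 and -0.69 for that tumour alone. The complement gene C1qa lay at 659.6, 675 and 397 TPM in the miR-183-5p group against 818, 733 and 578 TPM in the miR-222-3p group, so macrophage transcripts were abundant in all 6.

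Neutrophil genes had mostly positive values. Of 19 tested, 17 were positive (median 0.46), 4 had an unadjusted p under 0.05 and none passed the adjusted threshold. S100a9, a subunit of the calprotectin dimer stored in neutrophils, had 9757, 6346 and 7606 against 4307, 2802 and 6701 (0.78, SE 0.33). Its partner S100a8 had 4575, 2840.5 and 3423 against 2019, 1333 and 3249 (0.72, SE 0.33). In both genes miR-222-3p tumour 3 reached the range of the miR-183-5p tumours. Retnlg, a resistin-like gene of granulocytes, had a log2 fold change of 0.80 (SE 0.36). Il1r2, the decoy receptor that binds interleukin-1 without signalling, was the member with non-overlapping groups and the smallest p, at 917, 931 and 1022 against 624, 473 and 684 (0.69, SE 0.21, adjusted p = 0.565). The count of 4 was 1 without miR-183-5p tumour 1, miR-222-3p tumour 1 or miR-222-3p tumour 2, and the median lay between 0.26 and 0.70. Mpo, a peroxidase made in granulocyte precursors, had 6.34, 4.49 and 5.87 against 10.2, 18.1 and 15.8 with no overlap (-1.35, SE 0.83).

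Of 12 CXC chemokine genes 2 had an unadjusted p under 0.05, and both encode ligands that attract neutrophils. Cxcl2 had 672, 253 and 534 against 169.5, 158 and 376 (1.05, SE 0.44), and Cxcl3 had a log2 fold change of 1.11 (SE 0.56). The groups overlapped in both genes. The count of 2 was 0 without miR-183-5p tumour 1, miR-183-5p tumour 3 or miR-222-3p tumour 1, and 1 without miR-222-3p tumour 2. The list median of 0.36 lay between 0.21 without miR-183-5p tumour 1 and 0.83 without miR-222-3p tumour 3. Among 17 interleukin-1 family genes and receptors, 3 had an unadjusted p under 0.05, namely Il1r2, Il1rl1 (1.09) and Il1rap (0.46), and the count was 1 without miR-183-5p tumour 3 or miR-222-3p tumour 1. None of the 16 CC chemokine genes did (median -0.08, and 0.01 without miR-222-3p tumour 3).

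The markers of macrophage activation used in the study were then compared. Arg1, which consumes arginine in alternatively activated macrophages, had 9838, 8209.6 and 7148 against 6262, 6626 and 7995 (0.27, SE 0.27, adjusted p = 0.99965). Nos2, which makes nitric oxide from arginine in classically activated macrophages, had 4053, 3570.1 and 4842 against 989.8, 2442 and 2747. Its groups did not overlap, yet the spread within the miR-222-3p group left a log2 fold change of 1.01 with an SE of 0.58. The cytokine genes Il1b and Tgfb1 gave 0.38 (SE 0.24) and 0.02 (SE 0.15), and that of Tgfb1 was -0.08 without miR-183-5p tumour 3 and -0.06 without miR-222-3p tumour 1. Of 18 classical activation genes 1, the costimulatory ligand Cd80 (0.44, SE 0.21), had an unadjusted p under 0.05, and of 18 alternative activation genes 0 did, with list medians of 0.01 and -0.09. The alternative activation median was 0.07 without miR-183-5p tumour 3, 0.11 without miR-222-3p tumour 1 and -0.65 for miR-183-5p tumour 3 alone. The classical activation median lay between -0.05 and 0.13 with 1 tumour left out, so neither list kept a direction.

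In the study's list of tumour-associated macrophage (TAM) genes, 112 of 116 were tested, with 4 higher and 4 lower at an unadjusted p under 0.05 and a median of -0.01. The number lower ranged from 1 without miR-222-3p tumour 1 to 15 without miR-222-3p tumour 3. In its M1 list 45 of 54 were tested, with 1 higher, the NAD synthesis gene Nampt (0.27, SE 0.13), and 1 lower, and a median of 0.15 that was -0.03 without miR-222-3p tumour 1. In its M2 list 33 of 43 were tested, and 29 of these had a negative value, with a median of -0.21. Both M2 members under 0.05 were lower in miR-183-5p tumours. This count of 2 was 0 without miR-183-5p tumour 3, 1 without miR-222-3p tumour 1, 4 without miR-183-5p tumour 1 and 6 without miR-222-3p tumour 3. The M2 median was -0.15 without miR-183-5p tumour 3, -0.27 for that tumour alone and -0.09 without miR-222-3p tumour 1. The transporter gene Slco2b1 had 38.8, 45.9 and 18.04 against 141.6, 56.9 and 61.6 (-1.33, SE 0.52), and the purine receptor gene P2ry13 had 173, 227 and 120.2 against 417, 314 and 173 (-0.80, SE 0.32). The groups did not overlap in Slco2b1 and met at 173 normalised reads of miR-222-3p tumour 3 in P2ry13. No member of the 3 lists passed the adjusted threshold.

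Most lymphoid genes lay lower in miR-183-5p tumours, by an amount that depended on single tumours of both groups. All 19 T cell genes tested had a negative log2 fold change and none an unadjusted p under 0.05. Their median of -0.40 was -0.15 without miR-183-5p tumour 3, -1.06 for that tumour alone and -0.25 without miR-222-3p tumour 1. The T cell receptor chain Cd3e had 194, 119 and 61.6 against 201, 214 and 106 (-0.47, SE 0.51). The median of 14 cytotoxic and NK cell genes was -0.32, -0.05 without miR-183-5p tumour 3 and -1.20 for that tumour alone. Without miR-222-3p tumour 1 this median was -0.04. Some plasma cell transcripts were low in all 3 miR-183-5p tumours. Of 14 listed B and plasma cell genes 4 were tested, 3 negative and 1 positive (median -0.50). The summed TPM of the list overlapped between the groups, at 192, 237 and 234 against 184, 280 and 240. The constant region Ighg1 overlapped too, at 3.59, 19.9 and 13.8 normalised reads against 6.79, 11.5 and 41.0. Igha, the constant region of IgA, had 70.5, 55.1 and 49.5 against 169, 322 and 97.2, with every miR-183-5p tumour below every miR-222-3p tumour (-1.75, SE 0.53, adjusted p = 0.55).

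The light chain constant region Igkc had 82.2, 80.1 and 38.2 against 153, 292 and 189, and Jchain, which joins IgA into dimers, had 28.5, 19.9 and 23.2 against 71.2, 119.6 and 56.6. Neither overlapped between the groups. Both were among 46 genes without a p-value in the fit of 12 tumours, because DESeq2 set them aside for a single outlying count, and the highest value of 34 of these 46 was in tumour 3 of the miR-142-5p group, which is not compared here. In the fit of only the 6 tumours Igkc, Igha and Jchain passed the threshold, at adjusted p-values of 0.00563, 0.0225 and 0.0262 (DESeq2). That of Igha lay between 0.0225 and 0.99987 over all alternatives. The B cell marker Ms4a1 was at most 0.179 TPM in the 6 tumours.

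Skeletal muscle genes were high in 1 tumour. Of 18 listed genes 12 were kept and 8 had a p-value, of which 6 were higher at an unadjusted p under 0.05. Their median log2 fold change of 2.36 was 0.07 without miR-183-5p tumour 3, when 0 of the members had an unadjusted p under 0.05, and 3.73 for that tumour alone. The intermediate filament gene Des had 74.4, 89.1 and 1762 against 39.2, 45.6 and 79.0, and the fast myosin gene Myh1 28.4, 9.71 and 414 against 15.5, 3.45 and 10.96. The muscle creatine kinase Ckm had 17.6, 6.81 and 2115 against 9.90, 14.3 and 17.2. For tumour 3 alone Des, Ckm, Myh1, the giant sarcomere gene Neb, Tnnt3 and Mylpf were among the 32 genes called. Of the 46 genes without a p-value, 9 had their highest value in this tumour, and all 9 were muscle genes (Acta1, Atp2a1, Casq1, Ckm, Klhl41, Mybpc2, Myom2, Tcap and Ttn). Car3, an anhydrase of fat and slow muscle, had 25.7, 44.5 and 387 against 8.08, 24.2 and 42.6. The part of these transcripts in the haemoglobin and hypoxia values was not tested, and those values are given without tumour 3 above.

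Among stromal lists, endothelial genes lay mostly below 0 and metalloproteinase genes mostly above. Of 20 endothelial genes 19 had a negative value (median -0.26) and 1, the tight junction gene Cldn5, an unadjusted p under 0.05, with 359.9, 287 and 161 against 529, 311 and 412 (-0.63, SE 0.32). That count was 4 without miR-183-5p tumour 1, 5 without miR-222-3p tumour 2, 1 without miR-222-3p tumour 1 and 0 without any other tumour. Of 20 fibroblast and collagen genes none did (median 0.07, and -0.14 without miR-222-3p tumour 1). Collagen Col1a1 ranged from 7502 to 42067 normalised reads within the miR-222-3p group alone. Of 15 basement membrane genes 8 were positive and 7 negative (median 0.005), with 1 higher and 2 lower at an unadjusted p under 0.05. The 1 higher, the laminin chain Lama1, had 47.1, 104 and 56.5 against 16.97, 22.0 and 31.7 with no overlap (1.49, SE 0.50). Of 16 metalloproteinases and inhibitors 14 were positive (median 0.26, and 0.10 without miR-222-3p tumour 1), and Mmp13 was the 1 member under 0.05. The collagenase Mmp13 had 10476, 6726 and 12767 against 5045, 7287 and 7013 (0.63, SE 0.25), and the vitronectin receptor subunit Itgb3 2005, 1886 and 2193 against 1196, 1500.1 and 1819.5 (0.43, SE 0.19). Of 15 epithelial carcinoma genes none had an unadjusted p under 0.05 (median 0.12, and -0.06 without miR-183-5p tumour 2).

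Further lists held few members under an unadjusted p of 0.05, and their counts moved with single tumours. All 20 interferon-stimulated genes were positive with 0 under an unadjusted p of 0.05, and their median of 0.30 was 0.08 without miR-183-5p tumour 3. The count was 7 without miR-183-5p tumour 1 and 3 without miR-222-3p tumour 2. All 8 genes of MHC class II presentation were negative, also with 0 under 0.05, and their median of -0.24 was 0.22 without miR-222-3p tumour 2. Of 25 cell cycle genes 24 were positive (median 0.25, and 0.12 without miR-183-5p tumour 3). The spindle checkpoint kinase Bub1 had 1223, 1039 and 1266 against 716, 945 and 809.5 (0.51, SE 0.22). Bub1 was the 1 cell cycle gene under 0.05, and the count was 0 without miR-183-5p tumour 1, miR-183-5p tumour 3 or miR-222-3p tumour 1. Of 12 heat shock genes 11 were positive (median 0.25), 3 had an unadjusted p under 0.05, and in 6 the groups did not overlap. Of all genes 4.59% were higher without overlap. The count of 3 was 1 without miR-183-5p tumour 3, miR-222-3p tumour 1 or miR-222-3p tumour 2, and 5 without miR-222-3p tumour 3. The chaperone Hsp90aa1 had 26044, 26318 and 30367 against 19934, 20740 and 21072 (0.42, SE 0.15), and the other 2 heat shock genes under 0.05 were Hspa1b (0.77) and Dnajb1 (0.43). The transcription factor genes Jun and Nfkb2 gave 0.46 (SE 0.19) and 0.27 (SE 0.13), the Notch ligand Dll1 0.43 (SE 0.18) and the growth factor Bmp2 -0.64 (SE 0.32). Each was the only member under 0.05 of its list. These were 18 immediate early, 21 toll-like receptor and NF-kB, 14 Notch and 20 TGF-beta genes, with medians of 0.05, 0.07, 0.04 and 0.03. Without miR-222-3p tumour 1 the count was 2 for immediate early genes and 0 for the others. The keratin Krt15 gave 1.15 (SE 0.46) and the myelin gene Mag -1.06 (SE 0.50), both at or below 101 normalised reads in every tumour. The lists not described had medians from -0.34 for 7 mast cell genes, which was -1.53 for miR-183-5p tumour 3 alone, to 0.29 for 12 adipocyte genes, with at most 3 members higher and 2 lower at an unadjusted p under 0.05.

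Genes encoded in the mitochondrial genome were all on 1 side. All 13 had a negative log2 fold change (median -0.18), 3 had an unadjusted p under 0.05, and in 6 the groups did not overlap. Of all genes 4.46% were lower without overlap. The count of 3 was 0 without miR-183-5p tumour 1 and 1 without miR-222-3p tumour 1 or miR-222-3p tumour 3. The complex I gene mt-Nd3 had 2696, 2429 and 4725 against 3896, 5332 and 6237 (-0.65, SE 0.28), with miR-183-5p tumour 3 inside the range of the miR-222-3p tumours. Its log2 fold change was -1.01 without miR-183-5p tumour 3 and -0.13 for that tumour alone, which shares the library set of the miR-222-3p tumours. mt-Co2 and mt-Atp6, whose pseudogenes took reads mainly in miR-183-5p tumours 1 and 2, gave -0.27 and -0.21 alone but -0.09 and -0.08 when summed with their pseudogenes. mt-Nd5 and mt-Nd6 had log2 fold changes of -0.55 and -0.50. Of 79 nuclear genes of oxidative phosphorylation 0 had an unadjusted p under 0.05 (median 0.02). Of 81 cytosolic ribosomal protein genes 3 had an unadjusted p under 0.05 (median 0.01), the lowest being that of Rps12, with 1097, 1088 and 1885 against 1914, 1769.6 and 2695 (-0.65, SE 0.27). In Rps12 too, miR-183-5p tumour 3 lay apart from tumours 1 and 2, and the log2 fold change was -0.96 without it and -0.17 for it alone. The count of 3 ribosomal protein genes was 1 without miR-183-5p tumour 1, miR-183-5p tumour 2 or miR-222-3p tumour 1.

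**Figure D3:**
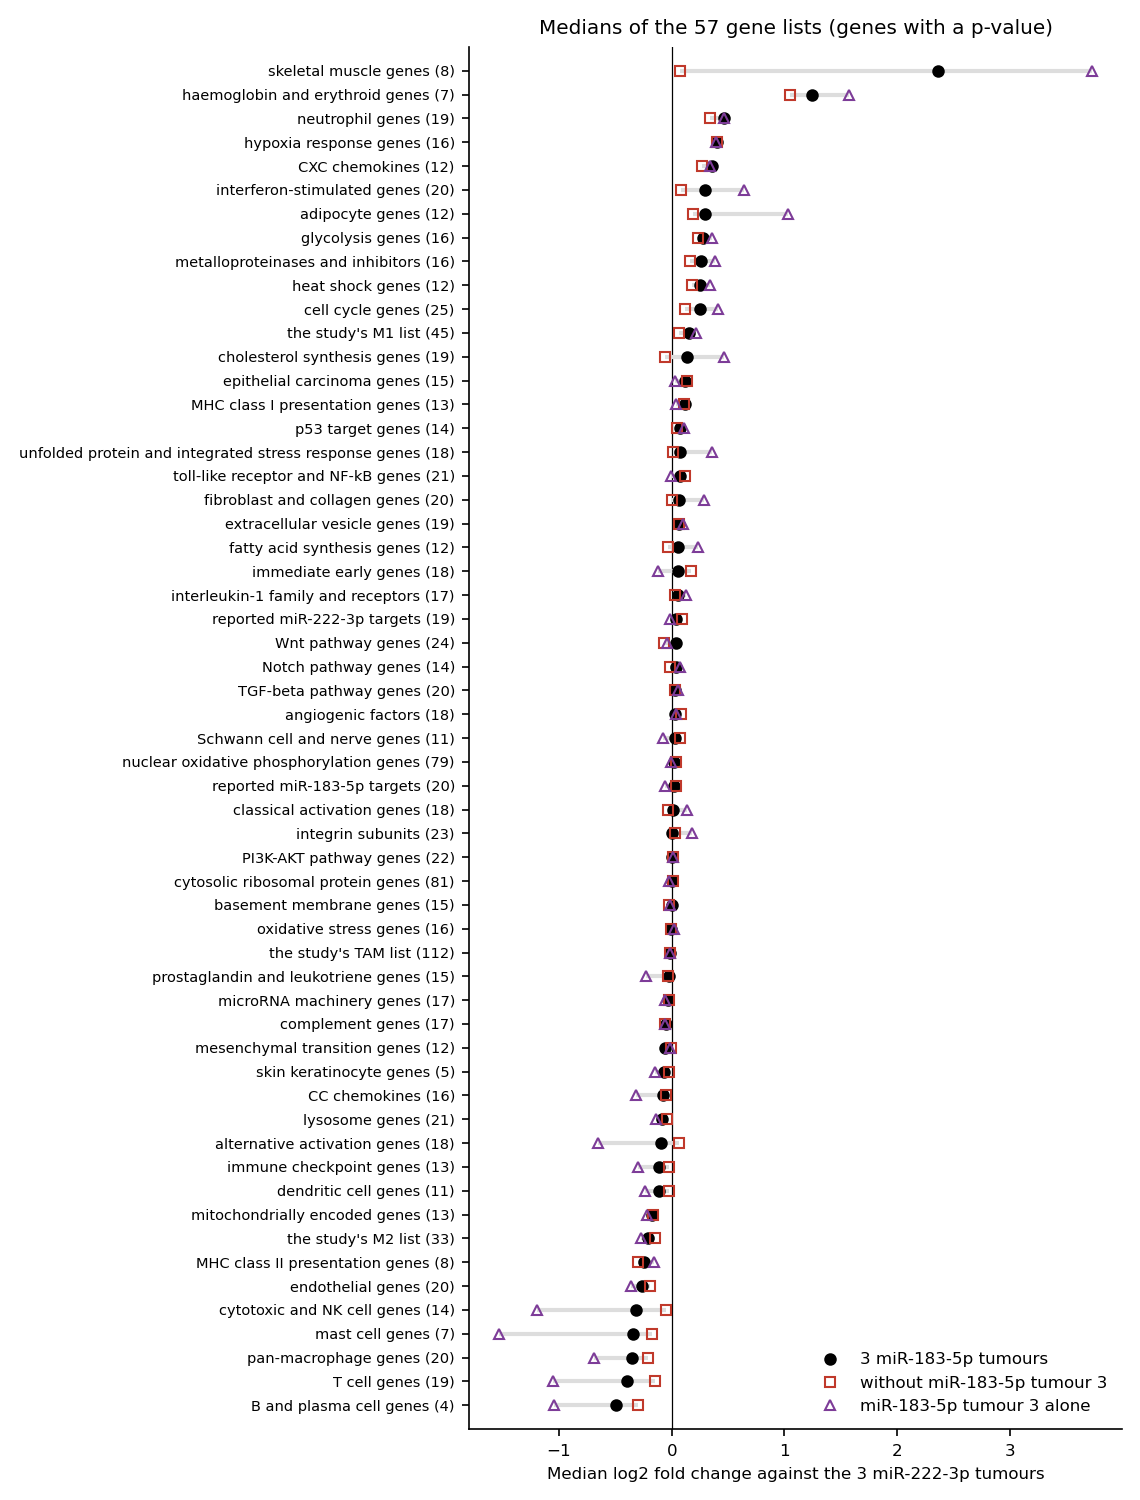
Median log2 fold change against the 3 miR-222-3p tumours (horizontal axis) of 57 gene lists (vertical axis, number of genes with a p-value in brackets), for the 3 miR-183-5p tumours (black), without tumour 3 (red squares) and for tumour 3 alone (purple triangles). Most lists lie near 0, the 3 symbols coincide for hypoxia response genes, and they are far apart for skeletal muscle, mast cell, T cell and cytotoxic cell genes.

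The groups were last compared by the seeds of the 2 mimics. The question was whether genes with a match to one seed lay lower in the tumours given that mimic. Of the genes tested, 1121 held an 8mer or 7mer-m8 match to miR-183-5p and none to miR-222-3p in the annotated 3′ UTR, and their median log2 fold change was -0.00167. The 1146 genes with a match to miR-222-3p only had a median of -0.0204, the 243 genes with both -0.0199, and the 12101 genes with neither 0.000306. Of the first class 18 were higher and 15 lower at an unadjusted p under 0.05, of the second 18 and 21, and of genes with neither 191 and 200. With 8mer sites alone the medians were 0.00275 over 191 genes and -0.0412 over 409 genes. Leaving out 1 tumour at a time moved the first median between -0.0161 and 0.0306 and the second between -0.0542 and 0.0295, and without miR-222-3p tumour 1 both were positive. The gap between the 2 medians was smaller than the range over which single tumours moved them. With each tumour left out in turn, the miR-222-3p median was the lower. It was 0.0295 against 0.0306 without miR-222-3p tumour 1, where the gap nearly closed, and -0.0542 against -0.0136 without miR-222-3p tumour 3. Without the length offset the gap nearly closed too, at -0.0179 against -0.017. With all tumours, genes matching miR-222-3p only thus lay slightly lower in miR-183-5p tumours, opposite to the order asked about. With 1 tumour left out, the median of the genes with an 8mer match to miR-222-3p only moved between -0.0936 and 0.0302. Of these genes 40.8% were positive with all tumours, beside 50.1% of genes with neither. This difference was not tested.

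The sites of 4 reported targets are shown because they are full 8mer matches, given in capitals, to 1 of the seeds. They lie in 3′ UTRs of the annotation on GRCm38.
Ezr, miR-183-5p, chr17:6738975-6739004, minus strand: gtggctcacggGTGCCATActtttctctag
Ppp2ca, miR-183-5p, chr11:52122097-52122126, plus strand: gaccaaaagatGTGCCATAtaaaatacaaa
Cdkn1b, miR-222-3p, chr6:134924420-134924449, plus strand: aaaagcattggATGTAGCAttgcgcaatta
Kit, miR-222-3p, chr5:75654981-75655010, plus strand: atgggagatatATGTAGCAagactagaaaa
The membrane linker Ezr had 5284, 5117 and 5278 normalised reads in the miR-183-5p group against 5280, 5224 and 4888 in the miR-222-3p group (0.03, SE 0.08). The phosphatase subunit Ppp2ca had 4786, 4788 and 4990.3 against 4242, 4758 and 4496 (0.11, SE 0.10). For miR-222-3p, Cdkn1b had 3174, 3749 and 3084 against 3450.1, 3356 and 2973 (0.03, SE 0.11), and its groups overlapped. Kit, a receptor of mast cells and progenitors, had 274, 256 and 179 against 706, 207 and 357, a wide spread that came from miR-222-3p tumour 1 (-0.84, SE 0.43). Of 20 reported targets of miR-183-5p and 19 of miR-222-3p, 0 had an unadjusted p under 0.05, and the medians were 0.02 and 0.04.

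**Figure D4:**
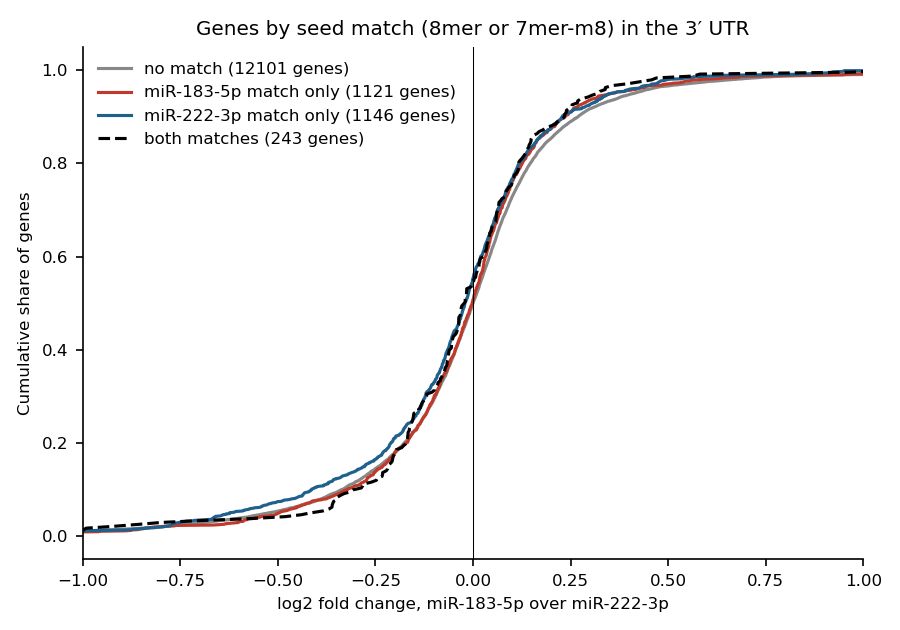
Cumulative share of genes (vertical axis) by log2 fold change of miR-183-5p over miR-222-3p tumours (horizontal axis, values beyond ±1 not shown) for genes with a seed match to miR-183-5p only, miR-222-3p only, both or neither. The 4 curves nearly coincide and all cross 0 close to the middle of the genes.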

How the data were processed

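The authors quantified 151-nt paired reads of stranded TruSeq mRNA libraries with Salmon. The deposited tables hold, per transcript, an estimated count of reads, TPM and an effective length. The study's methods and the tables name different Ensembl releases, so identifiers were matched without version to GENCODE M21 (GRCm38), and 116710 of 118783 transcripts matched. Here the estimated counts of a gene's transcripts were added and rounded, with the TPM-weighted effective length as offset. Groups came from the sample titles. Genes with 10 reads in 3 of the 12 libraries were tested in 1 DESeq2 1.42.0 fit (R 4.3.3, Wald test, group only, Benjamini-Hochberg, threshold 0.05). Alternatives were edgeR 4.0.16, TMM, other filters, no offset, the 6 libraries only, the replicate block, each tumour left out, the library set, protein-coding genes only and other thresholds. Replicates differed beyond sampling noise (chi-square per degree of freedom 13.65 to 59.07).

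Genes and lists were chosen with earlier results of these data known. Named were genes called, the 12 protein-coding genes per direction with the smallest p among those with a mean count of at least 100 and no overlap, the lowest p under 0.05 in each of 57 lists, and activation markers. Other list members were chosen after their values were seen. Results of 1 gene named by this rule are left out. Lists were described without a test. RefSeq promoter sequences, matched by symbol, existed for 11435 genes tested, and the start nearest to the gene's annotated 5′ end was used. Analysis scripts were tested on simulated data.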

Additional observations from a re-analysis of the deposited data

How the results depend on the processing

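The number of genes called was 5 with TMM factors, without a count filter, without the length offset and with a log2 fold change of at least 1, and 6 at an adjusted p under 0.1. It was 0 with edgeR (445 genes at an unadjusted p under 0.05), with at least 50 reads in every library (364), with protein-coding genes only (478) and with the pseudogenes summed with their copies (493), an alternative added after seeing the data, so that the higher calls were 0 as well. These last 3 settings remove or merge pseudogenes by construction. With only the 6 tumours 18 genes were called (12 higher and 6 lower), 1 of them shared with the 5. Within the library set 32 were called (23 higher and 9 lower), and the library set as a covariate gives the same contrast. Leaving out 1 tumour gave 1 to 15 calls, 1 to 8 higher and 0 to 7 lower. The replicate block gave 9 calls, all 9 higher, including the 5 and 4 haemoglobin genes. The labels do not say that equal numbers share an animal or anything else. The correlations of same-numbered tumours' deviations were 0.220, 0.0325 and 0.149, and those of differently numbered tumours lay between -0.192 and 0.0686. Whether same-numbered tumours share a batch was not tested. The cause of the differences in the number of calls was not tested either.

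Of 917 values of the named genes under alternatives, 5 reversed. Within the library set Gm28437 was at -1.73 and Gm10925 at -7.14, Usp2 was at 0.0465 without the length offset, and Tgfb1 was at -0.0818 without miR-183-5p tumour 3 and at -0.0646 without miR-222-3p tumour 1 (range -0.0818 to 0.0999 with 1 tumour left out). Of the others, 864 kept their direction and side of the threshold, 27 lost the call and 21 gained it. Of 912 list medians 19 moved by more than the spread between tumours. The median of genes with a miR-183-5p match lay between -0.0161 and 0.0306 and that with a miR-222-3p match between -0.0542 and 0.0295 with 1 tumour left out. With 3 tumours a group and library sets that split the miR-183-5p group, small differences could not be detected, and pseudogenes with full copies cannot be resolved by sequence.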
